A study of Mus musculus with 6 samples.

Results

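The genes described here were 31 genes of the oligodendrocyte lineage, listed by name and found as rows in all 6 count tables, out of 55341 gene rows in each table. They were grouped by the stage at which they are best known: 8 genes of the oligodendrocyte precursor, 4 genes of the committed oligodendrocyte and 19 genes of the myelinating cell. The libraries were poly(A) RNA-seq of cultured mouse cerebellar granule neurons (CGNs), 3 given the vehicle DMSO and 3 given GSK-126, an inhibitor of EZH2, the enzyme that methylates lysine 27 of histone H3. Agent and replicate number were stated in the labels, dose and time were not. According to the study's methods, granule neuron precursors of both sexes were purified on a Percoll gradient from the pooled cerebella of CD1-IGS litters about a week after birth, cytosine arabinoside was added on the second day to stop the division of non-neuronal cells, GSK-126 was added once, and cells were harvested on the fifth day in culture. No genetic change was named for either group, and cytosine arabinoside was shared by both. Addition on the first day was read from a code in the names of the tables, and no label states it.

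Oligodendrocytes wrap axons in myelin. They arise from dividing precursors that carry the growth factor receptor PDGFRA and the proteoglycan NG2, pass through a short committed stage, and then switch on the enzymes and membrane proteins of myelin under transcription factors such as SOX10 and MYRF. In the cerebellum, precursors are present at the age when granule neurons are purified, so a granule neuron culture can carry some of them. H3K27me3, the mark that EZH2 deposits, is found at silent promoters, CpG-rich ones among them. The study also reported it in gene bodies and in distal intergenic regions.

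Among the 3 members called when libraries were paired by replicate number, Cspg4 was the clearest of those that rose and Apod the only one that fell. The sequence just before their annotated starts is shown so that its CpG content can be read, since CpG-rich promoters are among the sites of H3K27me3. Capitals mark CpG dinucleotides, each sequence is given 5′ to 3′ on the strand of the gene, and both come from RefSeq on GRCm38.p6.
Cspg4, chr9:56864854-56865032, plus strand: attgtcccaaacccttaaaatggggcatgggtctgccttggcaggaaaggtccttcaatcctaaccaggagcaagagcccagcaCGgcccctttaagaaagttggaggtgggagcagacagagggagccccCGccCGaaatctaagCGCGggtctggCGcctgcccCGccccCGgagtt
Apod, chr16:31314809-31315058, minus strand: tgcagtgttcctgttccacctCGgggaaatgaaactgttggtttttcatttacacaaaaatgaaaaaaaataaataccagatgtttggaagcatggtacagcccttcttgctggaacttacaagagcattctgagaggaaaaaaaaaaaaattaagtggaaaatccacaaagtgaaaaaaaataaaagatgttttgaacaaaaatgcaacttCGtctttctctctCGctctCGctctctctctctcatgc
The Cspg4 stretch of 179 bases held 8 CpG dinucleotides, most of them in its last part, and the Apod stretch of 250 bases held 4. Of the 31 genes, 23 had an entry in the RefSeq promoter table used here, and Olig1, C1ql1, Gpr17, Bcas1, Mbp, Myrf, Fa2h and Trf had none. A start was counted as CpG-rich where the observed over expected CpG ratio was above 0.6 and the GC content above 50% in the 250 bases before it. By this measure 1 of 6 precursor genes (Olig2), 1 of 2 committed genes and 3 of 15 myelin genes were CpG-rich, beside 8420 of 27025 genes (31.2%) in the whole table. Neither promoter shown was among them, with a ratio of 0.53 for Cspg4 and 0.48 for Apod in the full RefSeq window of 250 bases. H3K27me3 at these sequences was not analysed here.

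Libraries held between 8058760 and 12047837 counts over genes, and the 31 genes together took 0.0984% to 0.190% of it. Expression is given as CPM, in which counts were scaled by library totals and TMM factors. A count of 3 corresponded to 0.249 to 0.372 CPM. Of the 31 genes, 28 passed the filter on low counts and were tested. The precursor enzyme gene Neu4 did not, with 1, 8 and 1 counts in DMSO replicates 1, 2 and 3 and 5, 2 and 0 counts with GSK-126. Opalin, a gene of mature oligodendrocytes, was near absent, with 0, 2 and 0 counts in the DMSO libraries and 2, 0 and 0 in the GSK-126 libraries. The transferrin gene Trf had 15, 3 and 7 counts in the DMSO libraries against 5, 7 and 1 in the GSK-126 libraries, and 63.5% of its exon length overlaps a gene model on the same strand, so that its count is uncertain. Markers of granule neurons, the labelled cell type, summed to 6637, 8642 and 6956 CPM with DMSO and to 4664, 7249 and 5665 CPM with GSK-126, well above the 31 lineage genes, which summed to 1774, 992 and 1502 CPM with DMSO and to 1904, 1081 and 1430 CPM with GSK-126.

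Levels were compared between genes per length, as CPM per kb of exon. Apod, which encodes the lipid carrier apolipoprotein D, stood highest with DMSO at 89.7 ± 60.5 CPM per kb (SD, n = 3), followed by Cldn11, the claudin of myelin tight junctions, at 79.2 ± 39.4. These neighbours did not differ beyond their spread. Mbp, the main cytoplasmic protein of compact myelin, stood at 28.0 ± 9.03 CPM per kb and Cnp, an early myelin enzyme, at 25.2 ± 3.28, again within their spread. Sirt2, a deacetylase of the myelin sheath, stood at 18.5 ± 1.69 CPM per kb and Vcan, the highest precursor gene, at 17.4 ± 4.98. The transcription factor gene Olig1 came next, and then Pdgfra at 9.55 ± 3.35 CPM per kb. Cspg4, which encodes NG2, stood far lower at 1.74 CPM per kb, and Neu4 and Opalin came last. Apod, Cldn11, Sirt2, Vcan and Pdgfra are not particular to the lineage, as fibroblasts, astrocytes or neurons express some of them, and in bulk RNA fewer cells of a type and less RNA per cell cannot be told apart.

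**Figure D1:**
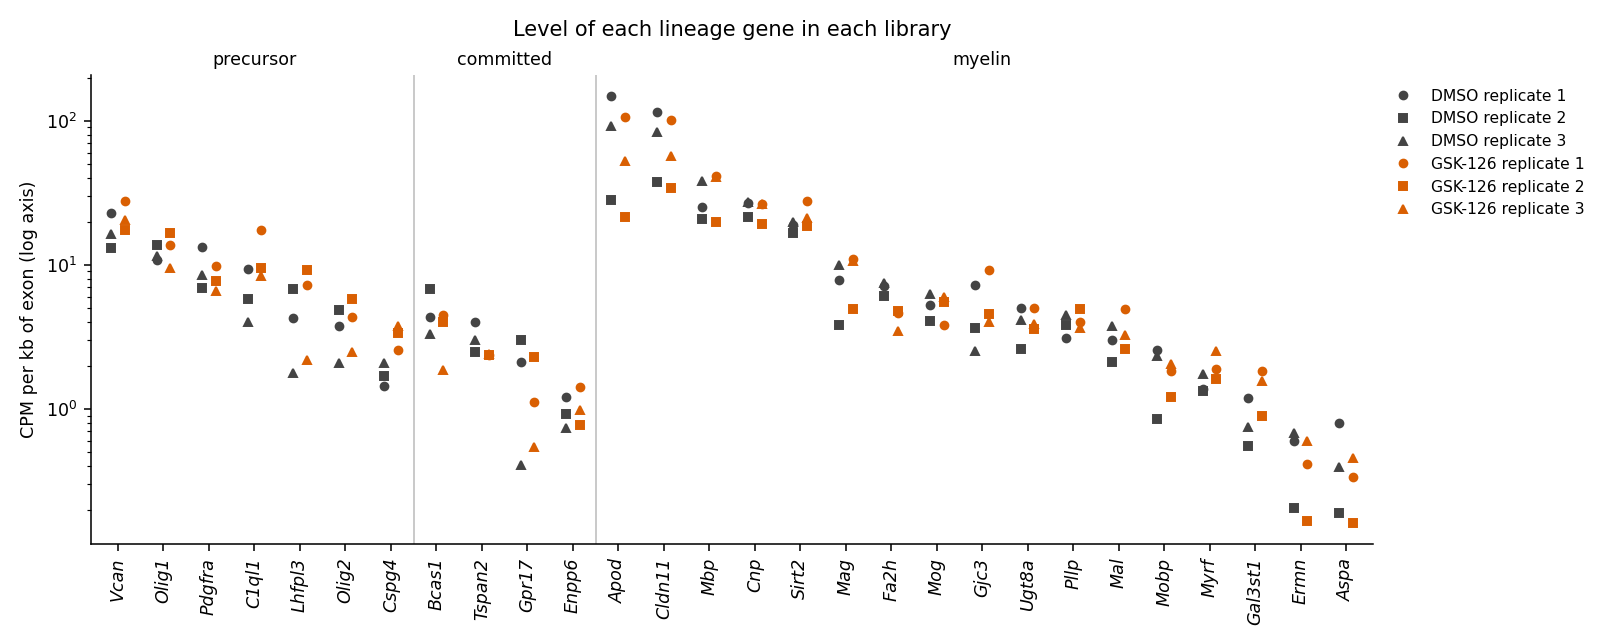
Level of the 28 tested lineage genes in each library, in CPM per kb of exon on a log axis, with genes ordered within each stage by their DMSO mean. Points are single libraries (grey for DMSO, orange for GSK-126; the symbol gives the replicate number), and the spread among the 3 DMSO libraries of 1 gene often exceeded the distance between the groups, as for Apod and Gpr17.

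The question of the comparison was which lineage genes differ when EZH2 is inhibited. Without regard to pairing, 0 of the 28 genes were called higher and 0 lower at an adjusted p under 0.05 (quasi-likelihood test of edgeR, Benjamini-Hochberg adjusted), as were 0% of all 16343 genes tested in either direction. At an unadjusted p under 0.05, 3 lineage genes passed (Cspg4, C1ql1 and Fa2h), beside 981 genes in all (3.43% higher and 2.58% lower). DESeq2 without a block called 0 lineage genes, against 0.281% of all genes higher and 0.0795% lower. The replicate numbers were taken to pair the libraries, since those of the same number deviated together, but no label states a pairing. With the replicate number as a block, edgeR called 2 lineage genes higher, Cspg4 and C1ql1, against 2.23% of all genes, and 1 lower, Apod, against 1.42% of all genes. At an unadjusted p under 0.05 the block gave 10 lineage genes, where all genes gave 9.28% higher and 7.46% lower. DESeq2 with the block called the same 3 genes in the same directions, where it called 2.5% of all genes higher and 1.63% lower.

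Among the precursor genes, Cspg4 had the lowest p-value. It had 17.3, 20.3 and 24.7 CPM in DMSO replicates 1, 2 and 3 and 30.8, 40.0 and 45.0 CPM in the GSK-126 replicates. Every GSK-126 library lay above every DMSO library, as it did for 5.43% of all genes, and within each group replicate 1 was lowest and replicate 3 highest. The mean went from 20.8 ± 3.72 to 38.6 ± 7.19 CPM (SD, n = 3), which is 0.89 on the log2 scale (SE 0.206; adjusted p 0.602 in edgeR). With the replicate block the log2 fold change was again 0.89 (SE 0.143, 95% CI 0.58 to 1.21), and the edgeR adjusted p was 0.00846. It was called without replicate 1 (edgeR with the block, adjusted p 0.00538) and without replicate 3 (0.0234), and it sat at the threshold without replicate 2 (0.0501). Cspg4 lies on chromosome 9 of GRCm38, 56865033 to 56899870, and no other gene model overlaps its exons.

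C1ql1 encodes a secreted C1q-related protein that precursors make, as do neurons of the inferior olive. It had 13.8, 8.50 and 5.91 CPM with DMSO and 25.9, 14.0 and 12.3 CPM with GSK-126. The groups overlapped, because DMSO replicate 1 lay above GSK-126 replicate 3, but the GSK-126 library was higher in each pair. The mean went from 9.42 ± 4.05 to 17.4 ± 7.42 CPM (SD, n = 3), or 0.89 in log2 units (SE 0.388; adjusted p 0.825 in edgeR). With the block it rose by 0.89 on the log2 scale (SE 0.195, 95% CI 0.46 to 1.32, edgeR adjusted p 0.0308). The call was lost whichever replicate number was left out, with edgeR adjusted p-values from 0.075 to 0.148 and log2 fold changes from 0.82 to 0.99. C1ql1 lies on chromosome 11, 102939264 to 102946688.

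The receptor gene Pdgfra, the defining gene of the precursor, did not share this direction. It had 133, 68.8 and 85.1 CPM with DMSO and 99.0, 77.6 and 65.8 CPM with GSK-126, so the groups overlapped and 1 of 3 pairs was higher with GSK-126. The fitted log2 difference was -0.24 (SE 0.254; adjusted p 0.891 in edgeR) and, blocked, -0.21 (SE 0.134, 95% CI -0.51 to 0.08; adjusted p 0.466). The difference between Cspg4 and Pdgfra was not tested. The genes of the lineage transcription factors were not called either. Olig1 had 23.3, 29.8 and 24.8 CPM with DMSO and 29.6, 35.9 and 20.7 CPM with GSK-126 (log2 fold change 0.15, SE 0.224, edgeR adjusted p 0.928; with the block 0.13, SE 0.165, adjusted p 0.772). Olig2, which with Olig1 sets the lineage, had 9.46, 12.3 and 5.32 CPM with DMSO and 11.1, 14.6 and 6.26 CPM with GSK-126 (log2 fold change 0.24, SE 0.392, edgeR adjusted p 0.931; with the block 0.24, SE 0.216, adjusted p 0.647). Olig2 was higher in each of the 3 pairs by a near equal step, from 0.22 to 0.25 on the log2 scale, whereas its replicates ranged 2.30-fold within the DMSO group.

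Lhfpl3, a membrane protein gene that marks precursors, had 13.8, 21.8 and 5.67 CPM with DMSO and 23.2, 29.5 and 7.06 CPM with GSK-126. Replicate 3 was lowest and replicate 2 highest in both groups. GSK-126 differed from DMSO by 0.54 in log2 units (SE 0.567; adjusted p 0.893 in edgeR), and by 0.52 in the blocked fit (SE 0.185; adjusted p 0.178). An antisense gene model covers 17.6% of its exon length, and the strand setting of the counting was not stated. Vcan, which encodes the matrix proteoglycan versican, had 330, 188 and 237 CPM with DMSO and 404, 254 and 298 CPM with GSK-126. It was higher in all 3 pairs, with a log2 fold change of 0.35 with the block (SE 0.0993, 95% CI 0.13 to 0.57, edgeR adjusted p 0.0855), and it was called only when replicate 1 was left out (edgeR with the block, adjusted p 0.0398). Of the 7 precursor genes tested, 5 were higher in all 3 pairs and 0 were lower in all 3, where 19.7% of all genes tested were higher and 19.3% lower in all 3 pairs. The median log2 fold change of the 7 was 0.34, with 6 of 7 above 0, beside -0.002 over all genes tested.

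**Figure D2:**
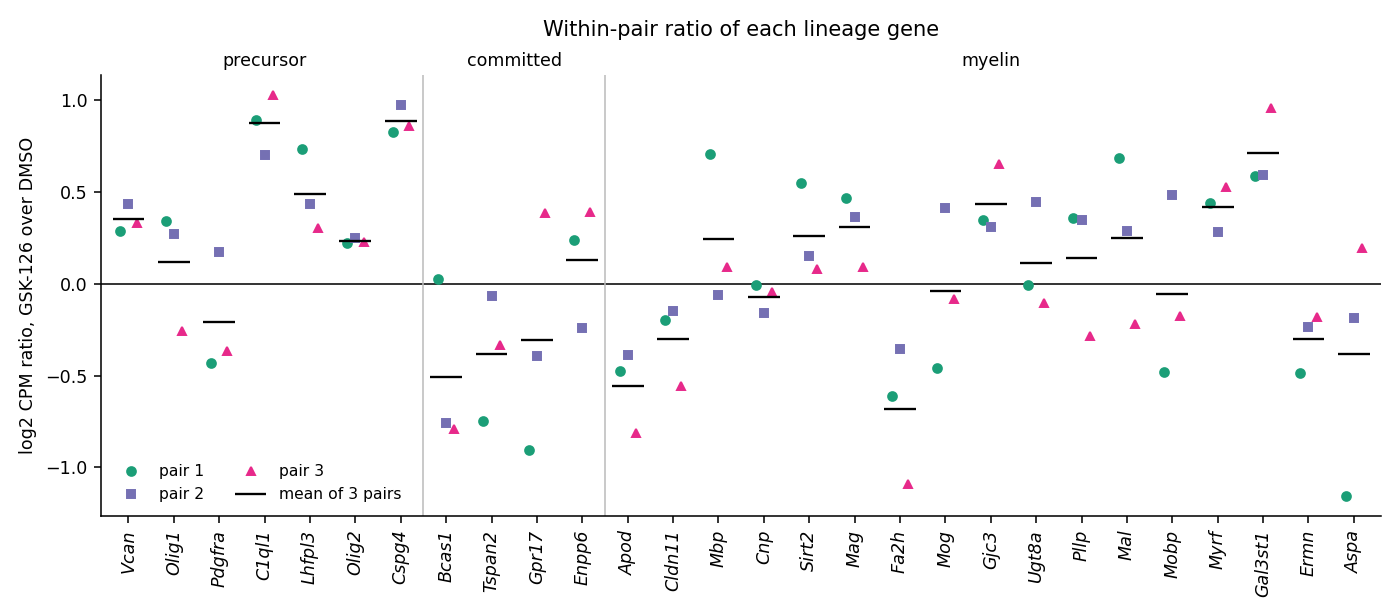
Log2 ratio of CPM, GSK-126 over DMSO, within each replicate pair (points) for the 28 tested lineage genes in the order of the plot of levels, with the mean of the 3 pairs as a bar. Cspg4 lay between 0.83 and 0.97 and Apod between -0.81 and -0.39. Of the 17 myelin genes tested, Apod included, 5 were higher in all 3 pairs and 5 were lower in all 3.

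The committed genes mark the brief stage between precursor and myelin, and 0 of 4 were called with or without the block by edgeR. Gpr17, a receptor that is switched on and then off as precursors commit, had 11.0, 15.8 and 2.13 CPM with DMSO and 5.75, 11.9 and 2.85 CPM with GSK-126. Replicate 3 was far below the others in both groups, and the DMSO libraries alone spanned 7.41-fold. Bcas1, expressed in early myelinating cells, had 16.5, 25.6 and 12.4 CPM with DMSO and 16.8, 15.1 and 7.06 CPM with GSK-126. It was nearly equal in pair 1 and lower with GSK-126 in pairs 2 and 3 (log2 fold change with the block -0.50, 95% CI -0.97 to -0.03, edgeR adjusted p 0.268). The tetraspanin gene Tspan2 had 19.1, 11.8 and 14.4 CPM with DMSO and 11.3, 11.2 and 11.4 CPM with GSK-126. Its GSK-126 libraries all lay below its DMSO libraries, as they did for 5.44% of all genes, and were almost identical to each other (block log2 fold change -0.40, 95% CI -0.86 to 0.06, edgeR adjusted p 0.371). Enpp6, a choline phosphodiesterase gene of newly formed oligodendrocytes, had 7.73, 5.88 and 4.73 CPM with DMSO and 9.16, 4.94 and 6.26 CPM with GSK-126, without a common direction. The median log2 fold change of the 4 genes was -0.45, with 1 of 4 above 0. Opposite-strand genes overlap 12.6% of the Bcas1 exons, 3.62% of the Gpr17 exons and 1.85% of the Tspan2 exons.

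The myelin genes moved in no common direction: 9 of the 17 tested had a log2 fold change above 0 and 8 below, with a median of 0.08. Across the 3 pairs, 5 were higher in each and 5 lower in each, beside 19.7% and 19.3% of all genes tested. Apod was the only one called, and only with the block. It had 383, 72.1 and 238 CPM with DMSO and 276, 55.1 and 135 CPM with GSK-126. The groups overlapped broadly, because replicate 2 was several times below the others in both, yet the GSK-126 library was lower in every pair. The mean went from 231 ± 156 to 155 ± 112 CPM (SD, n = 3), or -0.57 in log2 units (SE 0.645; adjusted p 0.898 in edgeR). With the block it fell by 0.56 on the log2 scale (SE 0.116, 95% CI -0.82 to -0.31, edgeR adjusted p 0.0232). Without replicate 1 it was still called (edgeR with the block, adjusted p 0.0124), but not without replicate 2 (0.0714) or replicate 3 (0.289). Without the block, leaving out DMSO replicate 1 alone brought its log2 fold change to 0.02. Apod lies on chromosome 16, 31296192 to 31314808, and no other gene model overlaps its exons.

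The structural genes of compact and adaxonal myelin were not called by edgeR with or without the block. Mbp had 214, 175 and 323 CPM with DMSO and 350, 168 and 343 CPM with GSK-126 (log2 fold change 0.28, SE 0.313, edgeR adjusted p 0.898; with the block 0.25, SE 0.141, adjusted p 0.418). Mog, a glycoprotein of the outermost myelin layer, had 8.998, 7.001 and 10.8 CPM with DMSO and 6.50, 9.40 and 10.1 CPM with GSK-126 (log2 fold change -0.04, SE 0.28, edgeR adjusted p 0.986; with the block -0.05, SE 0.249, adjusted p 0.953). Mag, the glycoprotein that faces the axon, had 32.2, 15.5 and 40.6 CPM with DMSO and 44.6, 20.002 and 43.3 CPM with GSK-126 (log2 fold change 0.29, SE 0.39, edgeR adjusted p 0.919; with the block 0.31, SE 0.146, adjusted p 0.323). Of these genes, Mag alone was higher in each of the 3 pairs. Cnp had 97.2, 77.9 and 99.8 CPM with DMSO and 96.9, 69.8 and 96.7 CPM with GSK-126 (log2 fold change -0.06, SE 0.17, edgeR adjusted p 0.966; with the block -0.07, SE 0.107, adjusted p 0.813). The interval of the Cnp difference with the block, -0.30 to 0.17, was among the narrowest, whereas that of Mog ran from -0.60 to 0.50. Mobp, another compact myelin gene, had 17.5, 5.88 and 16.0 CPM with DMSO and 12.5, 8.31 and 14.1 CPM with GSK-126. Cldn11 had 216, 70.5 and 157 CPM with DMSO and 189, 63.5 and 107 CPM with GSK-126. Cldn11 was lower in all 3 pairs and Mobp in 2 of them.

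Among the lipid enzymes of myelin, Fa2h and Gal3st1 lay furthest from 0, in opposite directions, and neither was called. Fa2h, the hydroxylase that makes the fatty acids of myelin galactolipids, had 21.5, 18.4 and 22.6 CPM with DMSO and 14.0, 14.3 and 10.5 CPM with GSK-126. Its groups did not overlap. Of the 28 genes tested, 1 lay wholly higher with GSK-126 and 2, Fa2h and Tspan2, wholly lower, beside 5.43% and 5.44% of all genes. The Fa2h groups were tight, at 20.8 ± 2.17 and 12.9 ± 2.14 CPM (SD, n = 3). In log2 units the difference was -0.68 (SE 0.207; adjusted p 0.806 in edgeR) and -0.69 in the blocked fit (SE 0.196, 95% CI -1.12 to -0.26; adjusted p 0.0869). Gal3st1, the sulfotransferase that makes sulfatide, was low at 2.42, 1.13 and 1.54 CPM with DMSO and 3.75, 1.81 and 3.19 CPM with GSK-126. It was higher in all 3 pairs, by 0.78 in log2 units (SE 0.471; adjusted p 0.839 in edgeR) and again 0.78 when blocked (SE 0.422; adjusted p 0.393). Ugt8a, which makes galactosylceramide, had 22.7, 11.9 and 18.9 CPM with DMSO and 22.7, 16.3 and 17.5 CPM with GSK-126. Aspa, the aspartoacylase that frees acetate for lipid synthesis, had 4.73, 1.13 and 2.36 CPM with DMSO and 2.00, 0.964 and 2.73 CPM with GSK-126. The log2 difference was -0.53 (SE 0.602; adjusted p 0.899 in edgeR) and -0.47 when blocked (SE 0.467; adjusted p 0.684), and DMSO replicate 1 was the one library that stood above the rest.

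The other myelin genes were not called either. Myrf, the transcription factor gene that drives myelin genes, had 11.8, 11.4 and 15.01 CPM with DMSO and 16.1, 13.9 and 21.8 CPM with GSK-126, and was higher in each pair (block log2 fold change 0.43, 95% CI 0.03 to 0.83, edgeR adjusted p 0.264). The connexin gene Gjc3 had 31.6, 16.0 and 11.0 CPM with DMSO and 40.3, 19.9 and 17.4 CPM with GSK-126, and Sirt2 had 95.1, 83.8 and 100.4 CPM with DMSO and 139, 92.9 and 106 CPM with GSK-126. Both were higher in all 3 pairs, and the blocked edgeR fit gave adjusted p-values of 0.201 for Gjc3 and 0.307 for Sirt2. The remaining genes encode membrane or cytoskeletal proteins of the sheath. The proteolipid gene Mal had 8.42, 5.88 and 10.5 CPM with DMSO and 13.7, 7.23 and 8.998 CPM with GSK-126. Its relative Pllp had 6.46, 8.001 and 9.33 CPM with DMSO and 8.33, 10.2 and 7.63 CPM with GSK-126, but an antisense gene model covers 54.2% of its exon length. Ermn, the ermin gene, had 2.19, 0.750 and 2.48 CPM with DMSO and 1.499, 0.602 and 2.16 CPM with GSK-126. Mal and Pllp were each higher in 2 of 3 pairs, and Ermn was lower in all 3 at levels a few counts above the floor in replicate 2. Antisense gene models also cover 7.26% of the exon length of Olig1, 6.52% of Ermn, 6.21% of Pdgfra, 4.23% of Cnp and 0.834% of Sirt2, and reads from either strand could not be separated there.

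Summed over each stage, the precursor genes had 541, 350 and 389 CPM with DMSO and 624, 465 and 455 CPM with GSK-126, and were higher in each pair by 0.20, 0.41 and 0.23 on the log2 scale. The committed genes summed to 54.3, 59.0 and 33.7 CPM with DMSO and to 43.1, 43.1 and 27.6 CPM with GSK-126, and were lower in each pair by a log2 difference of -0.34, -0.45 and -0.29. The myelin genes summed to 1178, 583 and 1079.5 CPM with DMSO and to 1237, 573 and 948 CPM with GSK-126, with log2 differences of 0.07, -0.03 and -0.19. The pair differences were thus of 1 sign for the precursor and committed sums and of both signs for the myelin sum. These sums rest on few genes: Vcan alone made up 53.6% to 65.5% of the precursor sum, and Apod, Mbp and Cldn11 made up 50% to 69.1% of the myelin sum. The log2 ratio of the myelin to the precursor sum was 1.12, 0.74 and 1.47 with DMSO and 0.99, 0.30 and 1.06 with GSK-126, lower in each pair, by -0.33 on average. Without Vcan and Apod the 3 pair differences in this ratio were 0.22, -0.37 and -0.10, with a mean of -0.08, so the sign common to the pairs was lost.

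Many members followed the replicate number in both groups. Replicate 2 was the lowest library in both groups for 13 of the 17 myelin genes tested, where this was so for 21.4% of all genes. It was also so for Vcan among the 7 precursor genes and Tspan2 among the 4 committed genes. Replicate 3 was lowest in both groups for Olig2, Lhfpl3 and C1ql1, for Gpr17 and Bcas1, and for the myelin gene Gjc3. Olig2, Lhfpl3 and Gpr17 were instead highest in replicate 2 in both groups. The order of the 3 replicates was the same in both groups for 13 of 28 lineage genes, beside 30.1% of all genes. Within the DMSO group the highest library exceeded the lowest by 1.92-fold in the median over the 28 genes, and by 1.41-fold over all genes tested. Deviations from the group means over the lineage genes correlated by 0.59 to 0.91 between libraries of the same number and by -0.80 to 0.05 between libraries of different numbers, across genes that are not independent of each other.

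**Figure D3:**
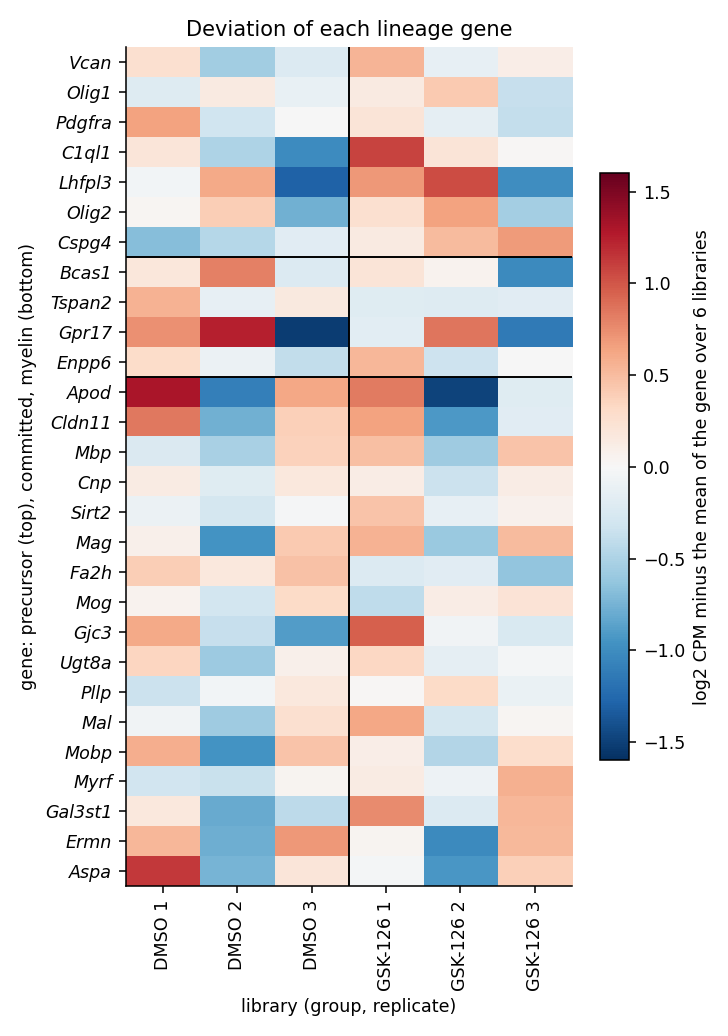
Log2 CPM of each tested lineage gene minus its mean over the 6 libraries, with libraries in columns (DMSO left of the line, GSK-126 right) and genes in rows by stage. Values below the mean are blue. Replicate 2 is the lowest library within both groups for 13 of 17 myelin genes. Replicate 3 is the lowest within both for Olig2, Lhfpl3, C1ql1, Gpr17, Bcas1 and the myelin gene Gjc3.

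Other genes of the lineage were examined next. Of 40 further precursor and oligodendrocyte genes on a list, 39 were in the tables and 36 were tested, and 0 were called by edgeR or DESeq2 with or without the block. At an unadjusted p under 0.05 in edgeR, 0 passed without the block and 6 of 36 with it. With the block, 9.28% of all genes passed as higher and 7.46% as lower, so the 6 were near the share over all genes. Their median log2 fold change was 0.03, and 0.06 with the block. Sox10, the transcription factor gene that both precursors and oligodendrocytes need, had 5.08, 8.88 and 3.78 CPM with DMSO and 6.25, 9.28 and 2.05 CPM with GSK-126 (block log2 fold change -0.10, edgeR adjusted p 0.916). Sox10 was highest in replicate 2 and lowest in replicate 3 in both groups, as Olig2, Lhfpl3 and Gpr17 were.

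Several members are also expressed by other cells that a cerebellar culture can hold, so the markers of those cells are given beside them. NG2, the product of Cspg4, is found on pericytes and other mural cells as well as on precursors. Of 8 mural markers, 6 were tested and 3 were called higher with the block in edgeR (Pdgfrb, Acta2 and Anpep), and their sum was 515, 599 and 820 CPM with DMSO and 941, 857 and 1165 CPM with GSK-126. Every GSK-126 library therefore lay above every DMSO library in that sum, as for Cspg4 and for the sum of fibroblast markers given next. Acta2 alone gave 274, 419 and 506 CPM of the mural sum with DMSO and 556, 597 and 702 CPM with GSK-126. Singly, Acta2 and Pdgfrb did not overlap between the groups, but Anpep, Rgs5, Notch3 and Abcc9 did. Rgs5, Notch3 and Abcc9 were also not called with the block in edgeR. The mural markers Kcnj8 and Higd1b were at 0 to 15 counts in every library. Pdgfra, Vcan and Apod are expressed in fibroblasts, whose 10 markers summed to 8465, 8356 and 11282 CPM with DMSO and to 12739, 11362 and 14172 CPM with GSK-126, with 3 called higher (Col1a1, Fn1 and Igf2) and 1 lower (Slc6a13) with the block in edgeR. The 14 astrocyte markers summed to 8610, 3111 and 5475 CPM with DMSO and to 8849, 3090 and 4693 CPM with GSK-126, lowest in replicate 2 in both groups like Apod, Cldn11 and most myelin genes, and 1 was called higher with the block (Gdf10). Of 12 microglial markers 5 were called higher with the block in edgeR (C1qb, C1qc, Cd68 and Ctss among them), and their sum was 775, 583 and 1070 CPM with DMSO and 1482, 761 and 1329 CPM with GSK-126, higher in each pair as the precursor sum was. Of 12 granule neuron markers 6 were called lower with the block in edgeR (Neurod1, Rbfox3, Gabra6, Etv1, Cbln1 and Cbln3), and the sum given above was lower with GSK-126 in each pair. Of 10 endothelial markers 7 were tested and 1 was called higher with the block in edgeR (Flt1). Schwann cells also make myelin, and their defining genes Foxd3, Egr2 and Pmp2 were at 0 counts in every library. Over 12 cell cycle genes the median log2 fold change was 0.03, and 0 were called by edgeR or DESeq2 with or without the block, with 0 at an unadjusted p under 0.05 in edgeR. The part of these other cells in the values of the lineage genes was not tested.

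**Figure D4:**
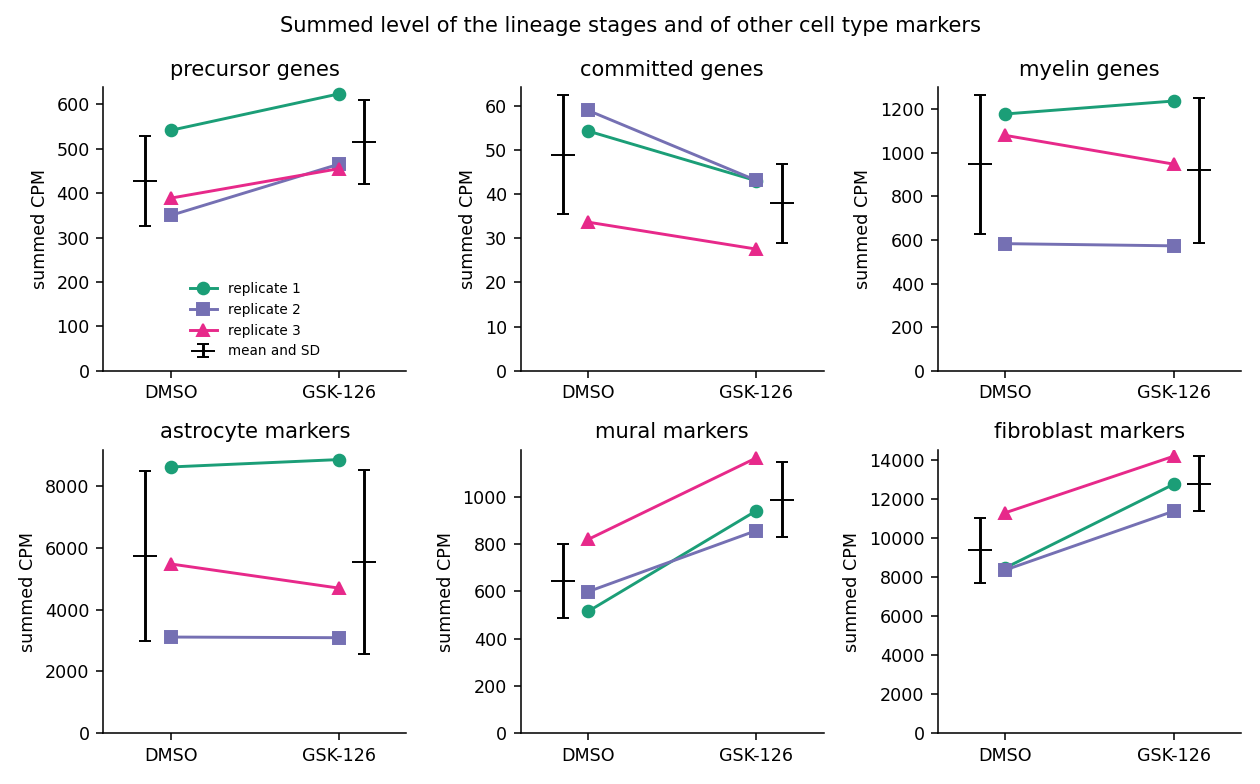
Summed CPM of the precursor, committed and myelin genes and of astrocyte, mural and fibroblast markers in each library, with lines joining libraries of the same replicate number and the mean and SD (n = 3) beside each group. The precursor sum was higher with GSK-126 in each pair, as were the mural and fibroblast sums, and the myelin and astrocyte sums were lowest in replicate 2 in both groups.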

How the data were processed

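The values deposited by the authors were read counts (whole numbers) of genes, in a table for each library (3 DMSO, 3 GSK-126), not normalized and not pooled. Per the submitters' processing notes and the study's methods, paired-end reads were trimmed with Trimmomatic 0.38, aligned with STAR 2.7.2b to mm10 (GRCm38) and counted over exons with HTSeq. The study named DESeq2 for its own test. The strand setting was not stated, so reads from overlapping antisense genes cannot be told apart. Summary rows without a gene entered neither library sizes nor tests (reads over no exon were 44.8% to 46.7% of fragments, and multiply aligned reads, which were not assigned, 9.54% to 10.4%). All 55341 symbols were found in GENCODE M21, which gave coordinates and exon lengths.

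Genes were filtered with filterByExpr by group, leaving 16343, scaled with TMM factors (0.994 to 1.01) and tested across all genes in edgeR 4.0.16 by its quasi-likelihood F test, with treatment as the only term and Benjamini-Hochberg adjustment at 0.05. Alternatives were the replicate number as a block, DESeq2 1.42.0, other scaling, no filter, and each library left out. The steps were tested on simulated data. Ratios within pairs used log2 CPM with a prior count of 2. Total counts were 8058760 to 12047837 per library. Floors cover counting error only, since reads carried no molecular identifiers.

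The replicate numbers were checked for pairing. Deviations from group means correlated by 0.35 to 0.52 between same-numbered libraries and by -0.41 to -0.01 between others, and by the study's methods each culture replicate was a pool of cerebella from litters, so the numbers were taken to pair the libraries. Deviations from a group mean sum to 0 in each gene, so the negative values between other numbers follow in part from the positive ones. Between any pair of libraries, chi-square over its degrees of freedom was at least 9.98, so none were duplicates. By this measure GSK-126 replicate 1 lay nearer to DMSO replicate 3 (19.8) than to DMSO replicate 1 (22.9), so pair 1 is less certain.

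The 31 genes, their stages and the other marker lists were chosen with earlier results of these data known. Every member was named with its value in each library. Fold change, SE and adjusted p were given for members with an absolute log2 fold change of at least 0.5 in the fit with or without the block, for those called in either, and for Pdgfra, Cspg4, Olig1, Olig2, Mbp, Mog, Mag and Cnp. For a few others that were singled out after their values were seen, block values were added. Some genes of the other lists are not reported by name here.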

Additional observations from a re-analysis of the deposited data

How the results depend on the processing

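The replicate block moved the counts of calls, and leaving out libraries moved the medians and signs. Without the block 0 genes were called by edgeR, against 597 with the replicate block, of which 3 were lineage genes. DESeq2 called 59 genes and 0 lineage genes, and DESeq2 with the replicate block called 674 genes and 3 lineage genes. The edgeR fit without a filter on low counts called 85 genes and 0 lineage genes. The other scalings called 0. With each library left out and no block, 0 genes were called, and the median log2 fold change ran from 0.15 to 0.55 for the precursor genes and from -0.13 to 0.14 for the myelin genes. With the replicate block and each replicate number left out, 178 to 704 genes and 0 to 3 lineage genes were called (704 genes and 3 lineage genes without replicate 1, 178 and 0 without replicate 2, 359 and 1 without replicate 3), and the medians ran from 0.33 to 0.38 and from -0.01 to 0.21. The mean pair difference in the log2 ratio of the myelin to the precursor sum was -0.33, and -0.08 without Vcan and Apod, a choice made after seeing the data.

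Over 28 genes and 15 alternatives, 384 results kept their direction and side of the threshold, 10 passed it and 26 changed sign, in 16 genes. None of the sign changes came from the 6 alternatives that kept all libraries. Leaving out 1 library at a time, log2 fold changes crossed 0 for Pdgfra (-0.42 to 0.081), Olig1 (-0.04 to 0.34), Olig2 (-0.046 to 0.54), Gpr17 (-1.14 to 0.071), Enpp6 (-0.13 to 0.37), Mog (-0.18 to 0.13), Mag (-0.001 to 0.61), Mobp (-0.51 to 0.10), Cnp (-0.15 to 0.079), Cldn11 (-0.80 to 0.086), Ermn (-0.75 to 0.006), Ugt8a (-0.13 to 0.30), Gjc3 (-0.069 to 0.96), Mal (-0.029 to 0.50), Aspa (-0.88 to 0.13) and Apod (-1.28 to 0.02). With the replicate block, leaving out a replicate number did so for Mog (-0.26 to 0.16), Mobp (-0.32 to 0.11), Aspa (-0.84 to 0.043) and Ugt8a (-0.038 to 0.21). The cause of these changes was not tested. Where 1 library or pair was left out, the fit has fewer samples. Low counts limit Ermn, Gal3st1 and Aspa, and Neu4, Opalin and Trf could not be tested at this depth.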
